A study of Mus musculus with 10 samples.

Results

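Described here are 6 genes whose transcripts stood high over control in the R6/2 striatum and that are not known as interferon-response genes: Myl6b, Smim24, Sidt1, Prdm8, Gm25177 and Gm12695. They are not all such genes: Camk2n2, named after its values were seen, had a larger log2 change (1.62) than Sidt1 or Prdm8. They are 6 of the 47632 gene rows of the deposited expression table. They were picked for their rise in these same libraries, so their difference between the groups is given as a description, with no test. They were chosen by their FPKM values, that is by fragments scaled by gene length and by the number of mapped fragments. This lets levels be set side by side between genes, but not safely for very short ones such as Gm25177 (117 bases), where few fragments can give a high value.

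The striatum is the part of the forebrain that suffers first in Huntington's disease. Its RNA was sequenced from 5 hemizygous R6/2 samples and 5 isogenic wild-type Control samples, all harvested at 11 weeks of age. R6/2 mice carry as a transgene the start of human huntingtin, driven by its own human promoter and with a lengthened CAG tract, beside the mouse's own Htt alleles. The labels give no treatment, and they do not say whether each library is a separate animal, so the p-values below reflect only how these samples vary, and part of that may be technical. The human transgene has no row in the table, and mouse Htt was at 16.1 ± 0.697 FPKM in Control and 16.5 ± 1.30 in R6/2 (SD, n = 5). Its log2 change was 0.03 (limma adjusted p = 0.825), so the labels were not checked on the transgene's own transcript.

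The 6 genes belong to different families. Myl6b codes for an essential (alkali) light chain of myosin, the small subunit that stabilises the lever arm of the motor, and it is a relative of the widely used non-muscle light chain gene Myl6. Sidt1 codes for a multipass membrane protein of the SID1 family, named after the worm protein through which double-stranded RNA enters cells. Prdm8 codes for a zinc finger repressor with a PR domain, which works with BHLHE22 in cortical projection neurons, represses Cdh11, and binds laforin and malin, the proteins lost in Lafora disease. Smim24 codes for a small integral membrane protein. Gm25177 is annotated as a gene for a small nuclear RNA (snRNA), the class of short RNAs that form the core of the spliceosome. Gm12695 is a predicted protein-coding gene and is known as the place where the R6/2 transgene is inserted.

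The sequence of Gm25177 is shown first because this gene had the largest rise of the genes tested. Its resemblance to other snRNA genes also bears on what the reads can tell. In GRCm38 it lies at chr17:50916925-50917041 on the minus strand and is 117 bases long. It is set beside Gm22005, at chr2:3291378-3291518 on the minus strand, an snRNA gene of 141 bases whose first 64 bases are 85.9% identical to it. Capitals mark the runs of at least 6 matching bases in the alignment of the 2 sequences, 49 bases in each, taken from the GENCODE transcripts.
Gm25177: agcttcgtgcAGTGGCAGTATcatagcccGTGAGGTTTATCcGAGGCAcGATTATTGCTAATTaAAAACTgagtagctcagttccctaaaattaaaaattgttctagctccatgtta
Gm22005: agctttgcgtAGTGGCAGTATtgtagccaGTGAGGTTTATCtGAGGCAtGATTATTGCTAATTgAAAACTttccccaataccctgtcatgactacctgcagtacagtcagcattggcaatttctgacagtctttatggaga
The shared stretches resemble the 5′ part of U4, the spliceosomal RNA that pairs with U6, and the 3′ parts of the 2 RNAs differ. RefSeq lists Gm25177 as a pseudogene. Compared with the 1382 other snRNA genes of the table, Gm25177 was at most 70.7% identical over the whole length, and the longest run of bases it shared with any of them was 33, with Gm25279, a gene listed at 0 in every library. In all, 35 snRNA genes were at least 80% identical over the first 64 bases. Of these 35, 11 had a value above 0 in some library and 0 had a value above 0 in all 10.

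Gm25177 was listed at 0 FPKM in all 5 Control libraries and was at 112.7, 90.7, 93.5, 34.3 and 35.1 FPKM in R6/2 libraries 1 to 5. The groups did not overlap, and within R6/2 libraries 1 to 3 stood well above libraries 4 and 5. The R6/2 mean was 73.3 ± 36.2 FPKM (SD, n = 5). The log2 change of Gm25177 was 6.05 on the scale of log2(FPKM + 1) used here throughout. As a rise it ranked 1 among the 15905 genes tested with limma (threshold, an adjusted p of 0.05). Of all 15905 genes tested, 14.1% passed the threshold in either direction, 5.00% as higher and 9.11% as lower, 27.5% had an unadjusted p under 0.05, and in 4.50% all 5 R6/2 values lay above all 5 Control values. All 5 tested genes of the group of 6 are among these, which follows from how they were picked. No fold is given against a group listed at 0. An exact 0 in such a table can be a failed estimate, and the depth of the libraries is unknown, so it does not show that the RNA was absent. In genes this short, FPKM values can come in steps: Gm22005 and Gm24265, both 141 bases long, were each at 20.98 FPKM in Control 5. The values of Gm25177 may thus rest on few fragments, whose number was not worked out.

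The pattern of 0 in all Control libraries and a value above 0 in all R6/2 libraries was rare. It was found for 8 of the 47632 genes, and the reverse pattern for 23. Gm25177 was the one snRNA gene among the 8. The other 7, among them the transcription factor genes Pax2, Hoxa7 and Klf1, stayed below 0.6 FPKM in every R6/2 library. Single snRNA genes were measured unsteadily: 352 of 1383 had a value above 0 in any library, 335 were tested, and 69% of the values of those 335 were 0. Of the 335, leaving out Gm25177, which was picked for its rise, Gm23540 and Gm24409 passed the threshold as higher in R6/2 and Gm24400 as lower. Over all genes tested, 5.00% passed as higher and 9.11% as lower. Beside Gm25177 the largest absolute changes were those of Gm24400, Gm24409 and Gm25047. Gm24400 was at 89.9, 50.4, 88.6 and 56.3 FPKM in Controls 1 to 4 and listed at 0 in Control 5 and in all 5 R6/2 libraries (log2 change -4.90, SE 1.12, limma adjusted p = 0.0172). Its call was lost with the cortical marker level as a covariate (-4.18, limma adjusted p = 0.133). Gm24409 was at 33.6 FPKM in Control 1, at 0 in Controls 2 to 5, and at 16.2, 48.9, 78.5, 12.3 and 37.9 FPKM in R6/2 (3.99, SE 1.02, limma adjusted p = 0.0283). Gm25047 did not pass the threshold (-3.78, limma adjusted p = 0.112), but it did without R6/2 1 (-4.85, limma adjusted p = 0.0319). The other higher gene, Gm23540, was named after its values were seen (3.01, limma adjusted p = 0.0243). The call of Gm23540 was lost in 10 alternative settings, among them without Control 1, 2, 3 or 4 or R6/2 1, 2, 3 or 5 (limma adjusted p from 0.0527 to 0.0623). That of Gm24409 was lost in 10, among them without Control 2, 3, 4 or 5 or R6/2 2, 3 or 5 (limma adjusted p from 0.0618 to 0.0748).

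Gm25177 lies wholly inside an exon of Tbc1d5, a gene for a GTPase-activating protein of endosome traffic, on the same strand. That exon, number 13 of a retained-intron transcript, spans chr17:50916724-50917699. Reads of the snRNA gene and of that transcript can therefore not be told apart by position. The level of Tbc1d5 as a whole was 9.55 ± 0.590 FPKM in Control and 8.44 ± 1.14 in R6/2 (SD, n = 5). The change, -0.17 on the log2 scale (SE 0.0948), did not pass the threshold (limma adjusted p = 0.292). Gm22005, the relative shown above, was at 29.8, 16.7, 0, 56.0 and 21 FPKM in Control and 21.6, 21.7, 14.9, 65.7 and 84.1 in R6/2, and its groups overlapped (1.22, limma adjusted p = 0.501).

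Gm12695, the gene at the insertion site (chr4:96723647-96785186, minus strand), was at 0.0688 FPKM in Control 1, and Controls 2 to 5 listed it at 0. It was at 2.29, 1.80, 2.34, 1.74 and 0.699 FPKM in R6/2 libraries 1 to 5. The lowest R6/2 value was 10.2 times the 1 Control value above 0, and library 5 stood below the other R6/2 libraries. The means were 0.0138 ± 0.0308 and 1.78 ± 0.661 FPKM (SD, n = 5). With a mean of 0.895 FPKM over all 10 libraries the gene fell under the limit of 1 FPKM and was not among the genes tested, so 5 of the 6 genes were. Without that limit its log2 change was 1.41. Because it is so low in Control, this value depends on the constant added before the logarithm: it was 3.98 with 0.1 FPKM added and 0.43 with 5.

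Within 200 kb of Gm12695, 3 of 5 annotated genes were tested with limma and 0 passed the threshold, also 0 at an unadjusted p under 0.05. The nearest tested gene on one side was Cyp2j9, a cytochrome P450 gene, at 4.16 ± 0.662 FPKM in Control and 3.66 ± 0.680 in R6/2 (SD, n = 5, limma log2 change -0.15, adjusted p = 0.528). The nearest tested gene on the other side, Gm27579, was at 491.0 FPKM in R6/2 library 1 and listed at 0 in all 9 other libraries (limma adjusted p = 0.533).

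Myl6b had the largest rise of all tested protein-coding genes with 1 FPKM added. With 0.1 FPKM added, Smim24 (3.46) and Prdm8 (2.30) were among the genes that stood above it (2.26). Genes outside the 6 were not ranked with that constant. Myl6b was at 4.98, 6.70, 3.92, 6.06 and 5.41 FPKM in Controls 1 to 5 and at 14.0, 24.3, 31.5, 30.9 and 35.2 FPKM in R6/2 libraries 1 to 5. The groups did not overlap: R6/2 library 1, the lowest of its group, was 2.09 times the highest Control. The mean went from 5.41 ± 1.06 to 27.2 ± 8.33 FPKM (SD, n = 5), a 5.02-fold difference of means and a log2 change of 2.09 (SE 0.234). In Control, Myl6b stood at percentile 41.5 of the tested protein-coding genes by level, and in R6/2 at percentile 86.1.

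**Figure D1:**
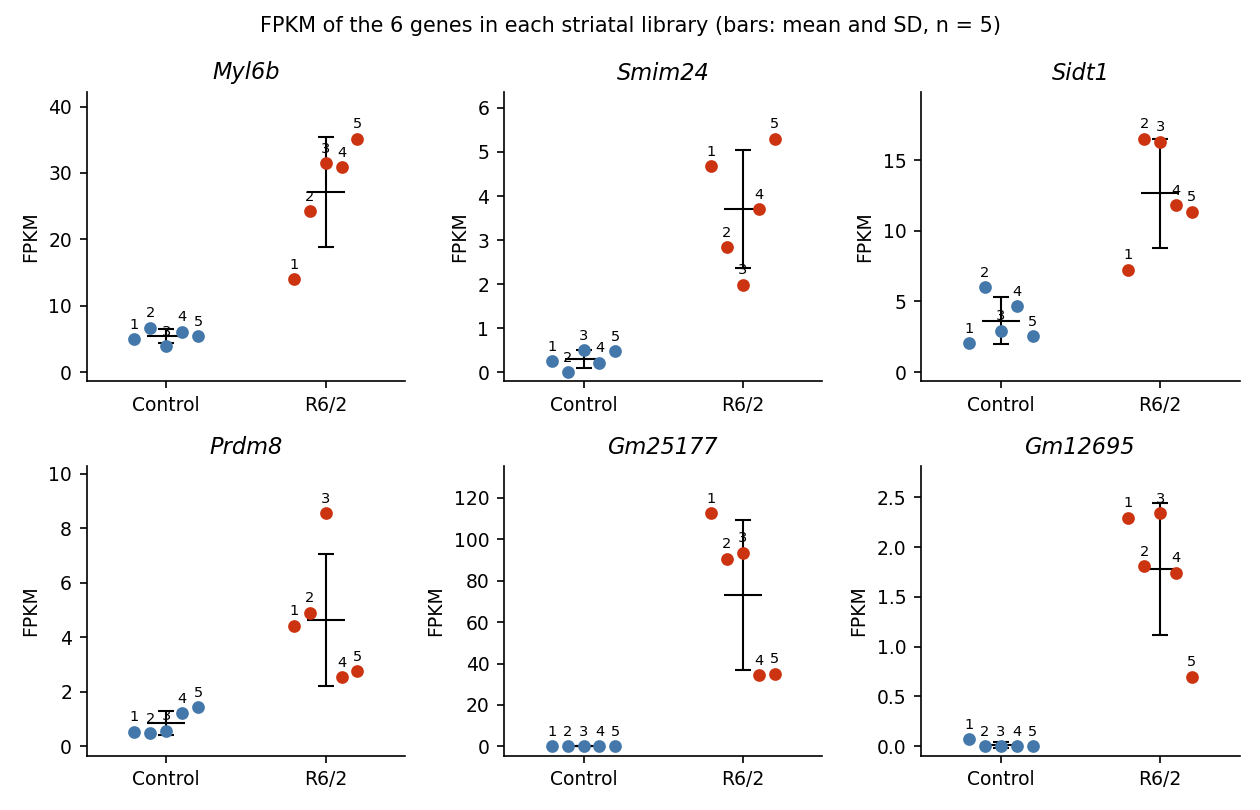
FPKM (vertical axis, a separate linear scale for each gene) of the 6 genes in the 5 Control and 5 R6/2 libraries. Points are libraries with their numbers, and bars are the mean and SD (n = 5). In every panel the R6/2 points lie above the Control points. The narrowest gap is that of Sidt1, whose lowest R6/2 library is 1.21 times the highest Control, and the order of the R6/2 libraries differs between genes.

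On the scale with 1 FPKM added, Smim24 was the fourth largest rise among protein-coding genes, from a level close to 0. Controls 1 to 5 read 0.253, 0, 0.498, 0.210 and 0.472 FPKM, and R6/2 libraries 1 to 5 read 4.67, 2.83, 1.99, 3.69 and 5.30 FPKM. The means were 0.287 ± 0.205 and 3.70 ± 1.34 FPKM (SD, n = 5). The fold of the means was 12.9 and the log2 change 1.83 (SE 0.228). R6/2 libraries 5 and 1 were the highest and library 3 the lowest, and the groups did not overlap. Since Control was under 1 FPKM, the log2 change was 3.46 with 0.1 FPKM added and 0.71 with 5, a wider span than that of Myl6b (2.26 and 1.59).

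Sidt1 was at 2.07, 6.0, 2.93, 4.69 and 2.55 FPKM in Controls 1 to 5 and at 7.24, 16.5, 16.3, 11.8 and 11.4 FPKM in R6/2 libraries 1 to 5. The groups did not overlap, but Control 2 came close to R6/2 library 1. Its mean went from 3.65 ± 1.65 to 12.7 ± 3.88 FPKM (SD, n = 5), 3.47-fold, with a log2 change of 1.57 (SE 0.275). By level Sidt1 moved from percentile 29.5 of the protein-coding genes to percentile 68.6.

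Prdm8 was at 0.538, 0.485, 0.579, 1.21 and 1.44 FPKM in Controls 1 to 5 and at 4.42, 4.90, 8.56, 2.54 and 2.76 FPKM in R6/2 libraries 1 to 5. R6/2 library 3 was the highest, libraries 4 and 5 were the lowest, and the lowest of them was 1.76 times the highest Control. The mean went from 0.851 ± 0.442 to 4.63 ± 2.42 FPKM (SD, n = 5), 5.45-fold, with a log2 change of 1.54 (SE 0.283). Sidt1 and Prdm8 ranked 9 and 10 among protein-coding genes by the size of the rise. Over all genes tested, the scale on which Gm25177 was ranked, Myl6b, Smim24, Sidt1 and Prdm8 ranked 133, 182, 269 and 277.

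By annotation the 4 protein-coding genes just described sit in separate places. In GRCm38, Myl6b lies at chr10:128494157-128498685 (minus strand), Smim24 at chr10:81393051-81395392 (plus), Sidt1 at chr16:44240180-44333196 (minus) and Prdm8 at chr5:98167198-98188991 (plus). Exons of Sidt1 overlap those of the antisense gene Gm26732 over 461 bases, and exons of Prdm8 overlap those of A730035I17Rik over 1411 bases. No source used here says whether the counting used strand, so reads there could belong to either gene. Both partners were low: Gm26732 was at most 0.291 FPKM and A730035I17Rik at most 0.590 FPKM in any library. The longest run of bases that Myl6b transcripts share with those of Myl6 was 46 bases, and that of Sidt1 with Sidt2 was 26 bases.

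The upstream sequences of the 2 chromosome 10 genes are shown because they had the highest changes of the 4 and because they differ in make-up. Each is the 250 bases before the start site in RefSeq (GRCm38.p6), with CG dinucleotides in capitals. The window of Myl6b is chr10:128498686-128498935 (minus strand) and that of Smim24 is chr10:81392814-81393063 (plus strand).
Myl6b: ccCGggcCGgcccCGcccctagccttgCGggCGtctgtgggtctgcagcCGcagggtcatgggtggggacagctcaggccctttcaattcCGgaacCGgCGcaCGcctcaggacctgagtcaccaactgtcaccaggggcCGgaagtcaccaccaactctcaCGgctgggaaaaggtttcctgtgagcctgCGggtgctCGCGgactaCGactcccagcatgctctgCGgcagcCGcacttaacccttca
Smim24: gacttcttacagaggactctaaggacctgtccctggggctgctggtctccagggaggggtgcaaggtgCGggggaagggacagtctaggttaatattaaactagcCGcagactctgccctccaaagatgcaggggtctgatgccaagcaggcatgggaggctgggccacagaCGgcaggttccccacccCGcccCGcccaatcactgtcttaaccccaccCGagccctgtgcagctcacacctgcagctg
Myl6b had 18 CG dinucleotides, more than 78.3% of the 32851 RefSeq promoters of that length, and Smim24 had 6, the median over all of them. RefSeq held promoters for 5 of the 6 genes, without Gm25177. RefSeq start sites can differ from the spans given above. The windows of Prdm8 (chr5:98180619-98180868) and Sidt1 (chr16:44332839-44333088) lie inside those spans, and that of Gm12695 (chr4:96786751-96787000) does not adjoin its span. Sidt1 had 7, Prdm8 11 and Gm12695 4 CG dinucleotides. On both strands, the core of the element through which interferon acts on its target genes (GAAA, any 2 bases, GAAA) was in 0 of the 5 windows and in 2.98% of all promoters. TATAAA was in 0 of the 5 (12.4% of all), and so was CACGTG (6.02%). CCAAT was found in the windows of Smim24, Sidt1, Prdm8 and Gm12695 (33.8% of all), GGGCGG in those of Myl6b, Smim24 and Gm12695 (32.7%), and TGACG in those of Sidt1 and Prdm8 (17.8%). Each of these shares is a match of letters in a window and no evidence of a bound factor.

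No other myosin light chain gene passed the threshold. Of 11 others, 6 were tested with limma and 0 passed in either direction, also 0 at an unadjusted p under 0.05, with a median log2 change of -0.09 against 0.001 over all genes tested. Myl6, which starts 11 bases beyond the end of Myl6b on the same strand, was at 2.03, 2.27, 2.75, 2.86 and 3.93 FPKM in the Control libraries and stood at 1.84, 3.33, 3.30, 2.51 and 1.15 FPKM in R6/2. Its groups overlapped (log2 change -0.17, SE 0.219, limma adjusted p = 0.673). In Control the mean of Myl6b was above that of Myl6, 5.41 against 2.77 FPKM, and in R6/2 it was 27.2 against 2.42 FPKM. The regulatory light chain gene Myl12b was at 34.4 ± 2.32 FPKM in Control and 35.6 ± 2.18 in R6/2 (SD, n = 5, 0.05, limma adjusted p = 0.70). The skeletal light chain gene Mylpf was highest in 1 Control library, at 13.4 FPKM (-0.45, limma adjusted p = 0.74).

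Of 17 myosin heavy chain genes tested, 0 were higher (5.00% of all genes were) and 4 lower (9.11% of all genes were). Among the 4 were Myo5b, a motor of recycling endosomes (16.0 to 7.15 FPKM; limma log2 change -1.11 with SE 0.186, adjusted p = 0.00358), Myh10, the heavy chain of non-muscle myosin IIB (71.3 to 41.1 FPKM, -0.80, SE 0.184, limma adjusted p = 0.0177), and Myo9b, named after its values were seen (-0.32, limma adjusted p = 0.0291). In these 3 genes all 5 R6/2 values lay below all 5 Control values. The call of Myo9b was lost in 11 alternative settings, among them without Control 1, 2 or 3 or R6/2 1, 2, 3 or 5 (limma adjusted p from 0.0504 to 0.0625), and that of Myh10 with the cortical marker level as a covariate, at a change of -0.86 (limma adjusted p = 0.0706).

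From a list for the kinases and phosphatases that act on myosin light chains, 8 genes were tested. They include Mylip, a ubiquitin ligase gene. Of the 8, 0 were higher and 3 lower, against 5.00% and 9.11% of all genes. Rock2, a kinase gene of the cytoskeleton, fell from 44.0 ± 2.46 to 31.1 ± 2.59 FPKM (SD, n = 5; limma log2 change -0.49 with SE 0.0733, adjusted p = 0.00183). Ppp1cb, the catalytic subunit of myosin phosphatase, fell from 121.7 ± 14.2 to 82.4 ± 9.80 FPKM (SD, n = 5, -0.56, SE 0.106, limma adjusted p = 0.00719). For both, all 5 R6/2 values lay below all 5 Control values. Its targeting subunit gene Ppp1r12c was at -0.36 (SE 0.104, limma adjusted p = 0.0459), a call that was lost in 12 alternative settings, among them without Control 1, 2, 3 or 4 or R6/2 2, 3 or 5 (limma adjusted p from 0.0688 to 0.0901).

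In a short list of the relative of Sidt1 and genes for sensing or handling double-stranded RNA, no other tested gene passed the threshold. The list is not complete, and the OAS family is not in it. Of 8 other genes of that list, 7 were tested with limma and 0 passed, also 0 at an unadjusted p under 0.05, with a median log2 change of 0.12. Sidt2, the second mammalian SID1 gene, was at 18.4, 28.7, 20.04, 16.2 and 21.4 FPKM in the Control libraries and stood at 29.4, 27.6, 21, 21.4 and 12.5 FPKM in R6/2. Its groups overlapped (log2 change 0.06, SE 0.228, limma adjusted p = 0.90). Ddx58, the gene of the sensor RIG-I, was at 0.78 (SE 0.366, limma adjusted p = 0.206), the kinase gene Eif2ak2 at 0.43 (SE 0.205, limma adjusted p = 0.206), and Ifih1, the gene of MDA5, at 0.27 (SE 0.272, limma adjusted p = 0.566). With standard errors of this size, values like these could not be told from 0.

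Among the 5 partners and targets of PRDM8, 4 were tested and 1 was higher, against 5.00% of all genes. Epm2a, the laforin gene, was at 2.92, 3.70, 2.65, 3.14 and 3.31 FPKM in the Control libraries and stood at 4.37, 3.93, 6.12, 4.05 and 5.87 FPKM in R6/2, without overlap (log2 change 0.49, SE 0.131, limma adjusted p = 0.0345). R6/2 library 3 was the highest in Epm2a as in Prdm8. The call of Epm2a was lost in 10 alternative settings, among them without Control 1, 3, 4 or 5 or R6/2 1, 3 or 5 (limma adjusted p from 0.0506 to 0.0837). Cdh11, a cadherin gene that PRDM8 represses, was at 16.0 ± 2.57 FPKM in Control and 12.2 ± 1.49 in R6/2 (SD, n = 5, -0.36, SE 0.116, limma adjusted p = 0.0705), and passed without R6/2 2 (limma adjusted p = 0.0499). Ehmt2, a histone methyltransferase gene, was at 0.24 (limma adjusted p = 0.25). Bhlhe22, the partner of PRDM8, was too low to be tested: it was at 0.223, 0.292, 0.367, 0.280 and 0.315 FPKM in the Control libraries and stood at 1.05, 0.977, 1.57, 0.533 and 0.799 FPKM in R6/2, with all R6/2 values above all Control values.

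None of the other small integral membrane protein genes and PR domain genes passed the threshold. Of 17 other small integral membrane protein genes tested, 0 passed limma's threshold as higher and 0 as lower (2 at an unadjusted p under 0.05), with a median log2 change of -0.05. The smallest p-values were those of Smim26 (0.47, limma adjusted p = 0.088), Smim14 (-0.40, limma adjusted p = 0.157) and Smim7 (-0.27, limma adjusted p = 0.19). Of 9 other PR domain genes tested, 0 were higher and 0 lower (1 at an unadjusted p under 0.05), with a median of 0.06. Prdm11 was at 3.76 ± 0.334 FPKM in Control and 4.72 ± 0.497 in R6/2 (SD, n = 5, 0.26, limma adjusted p = 0.0751), and Mecom was at 0.49 (limma adjusted p = 0.528). Smim26 and Prdm11 passed as higher when the libraries were rescaled to 1 protein-coding total (limma adjusted p = 0.0329 and 0.0174).

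**Figure D2:**
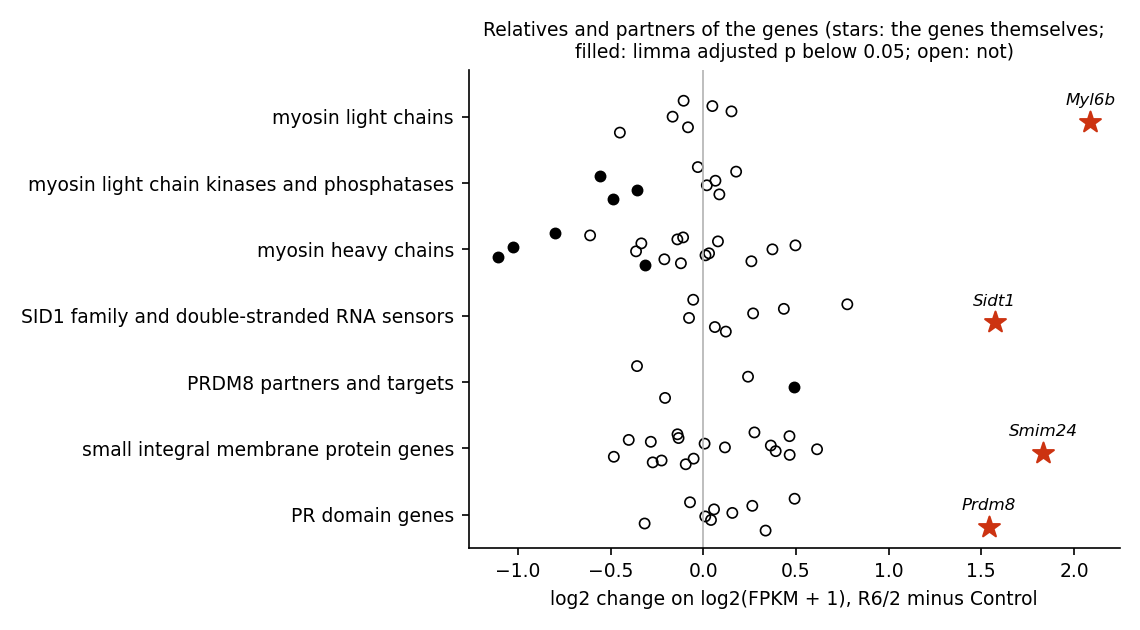
Log2 change on log2(FPKM + 1), R6/2 minus Control (horizontal axis), of the tested genes of 7 lists (vertical axis). Circles are other genes of each list, filled where the limma adjusted p was below 0.05, and stars are Myl6b, Sidt1, Smim24 and Prdm8. The stars lie at 1.54 to 2.09, and no other gene of the lists lies above 0.78.

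Genes near the 6 passed the threshold in few cases. Of 96 genes within 200 kb, 55 were tested, 1 was higher and 3 were lower, which is 7.27% of those tested against 14.1% over all genes. With libraries rescaled to 1 protein-coding total 7 passed. At an unadjusted p under 0.05 by limma stood 7 of 24 genes beside Myl6b and 6 of 21 beside Smim24, against 27.5% of all genes. Sidt1 was the one gene with a neighbour that was tested and passed as higher, Atp6v1a, which codes for a catalytic subunit of the proton pump of vesicles. Atp6v1a, 100474 bases from Sidt1, was at 425.7, 364.3, 207.6, 403.1 and 430.3 FPKM in the Control libraries and stood at 648.5, 790.5, 714.3, 623.5 and 556.9 FPKM in R6/2, without overlap. Its log2 change was 0.90 (SE 0.20, limma adjusted p = 0.0153), and the call was lost with the cortical marker level as a covariate (0.66, limma adjusted p = 0.134). The nearest tested genes on either side of Sidt1, Usf3 and Spice1, were at 0.01 and 0.17 (limma adjusted p = 0.94 and 0.762).

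Beside Smim24, 2 of 21 tested genes were lower. Nfic, a transcription factor gene that ends 793 bases from it, fell from 18.1 ± 1.84 to 12 ± 1.66 FPKM (SD, n = 5; limma log2 change -0.56 with SE 0.110, adjusted p = 0.00871). Celf5, the gene of an RNA-binding protein, fell from 39.0 ± 4.94 to 26.5 ± 2.91 FPKM (SD, n = 5, -0.54, SE 0.109, limma adjusted p = 0.00963). With the cortical marker level as a covariate the call of Celf5 was lost (-0.40, limma adjusted p = 0.0841), and Nfic just missed the threshold at a change of -0.57 (limma adjusted p = 0.05). On the other side of Smim24, Dohh was at 0.21 (limma adjusted p = 0.533).

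Beside Myl6b, 24 genes were tested and 1 was lower: Erbb3, a neuregulin receptor gene of glia, at 1.77 ± 0.239 FPKM in Control and 0.802 ± 0.372 in R6/2 (SD, n = 5; limma log2 change -0.64 with SE 0.177, adjusted p = 0.0392), a call lost in 6 alternative settings, among them without Control 1, Control 3 or R6/2 2 (limma adjusted p from 0.0541 to 0.059). The nearest gene upstream, A430046D13Rik, 678 bases away, was at 3.16 ± 0.502 FPKM in Control and 4.2 ± 0.709 in R6/2 (SD, n = 5, 0.32, limma adjusted p = 0.119), and passed only when the libraries were rescaled (limma adjusted p = 0.0405). Beside Prdm8, Fgf5 was the single tested gene. It was at 0.764, 1.43, 0.802, 0.829 and 1.07 FPKM in the Control libraries and stood at 1.22, 2.60, 2.4, 1.18 and 2.70 FPKM in R6/2, and the groups overlapped (0.58, SE 0.206, limma adjusted p = 0.0954). Without R6/2 4 it passed (limma adjusted p = 0.0473).

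**Figure D3:**
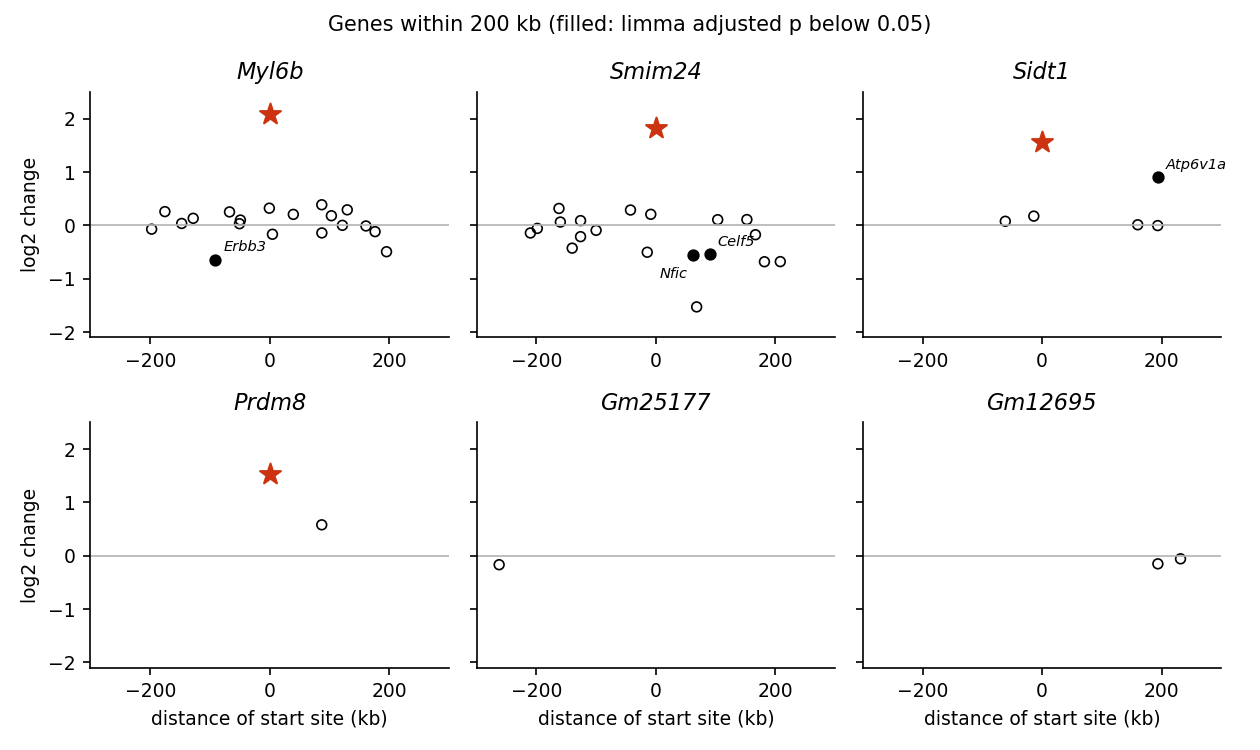
Log2 change on log2(FPKM + 1) of 47 tested protein-coding and long non-coding genes within 200 kb of each of the 6 genes (vertical axis) against the distance of their start sites in kb along the strand of that gene (horizontal axis). Stars are the genes themselves, without Gm25177, whose change of 6.05 lies off the scale, and Gm12695, which was not tested. Filled circles passed the threshold: Atp6v1a above 0, and Erbb3, Nfic and Celf5 below it.

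The labelled tissue carried its defining markers, and these differed between the groups. The 10 markers of spiny projection neurons, the main cell type of the striatum, summed to 1651 to 2100 FPKM in Control and 215.2 to 351.3 in R6/2, and all 10 were lower. Their mean fell by 2.4 on the log2 scale (exact permutation test over libraries, two-sided, p = 0.00794, the smallest that 5 against 5 can give, 0.0198 after Benjamini-Hochberg adjustment over 10 marker lists). In such bulk RNA, fewer cells of a type and less RNA per cell cannot be told apart. The means of 4 further lists were lower: oligodendrocytes (-0.755, 5 of 8 markers lower), blood cells (-0.689, 2 of 6 tested), astrocytes (-0.393, 2 of 8) and microglia (-0.231, 1 of 7). Their adjusted p-values were 0.0198, 0.0317, 0.0198 and 0.0198 by the same exact test. Endothelial cells (-0.118, exact test adjusted p = 0.159), smooth muscle cells and pericytes (-0.042, 0.60), thalamic neurons (-0.187, 0.397) and choroid plexus and ependyma (0.049, 0.897) did not pass. Rescaled to 1 protein-coding total, microglia no longer passed (-0.131, exact test adjusted p = 0.0926). The blood list no longer passed in 9 of 13 settings: with 0.1 FPKM added (-0.871, exact test adjusted p = 0.111) and without any 1 library other than Control 3 or R6/2 3 (-0.752 to -0.587, exact test adjusted p = 0.0635). No marker of any list was at 0 in every library.

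Markers of cortical excitatory neurons, cells that a striatal piece can hold at its border, stood higher in R6/2 by 0.389 on the log2 scale without passing (exact permutation test, two-sided, p = 0.111, adjusted p = 0.159), and did pass with libraries rescaled to 1 protein-coding total (0.490, exact test adjusted p = 0.0476). Of the 10, 2 were higher by limma, among them Neurod2, and 2 were lower, Lamp5 and Tle4. Their FPKM summed to 89.4 to 119.0 in Control and 96.2 to 167.3 in R6/2. The list's mean of log2(FPKM + 1) was 2.84, 3.38, 2.78, 3.38 and 3.28 in Control and 3.36, 3.66, 3.97, 3.22 and 3.38 in R6/2. The groups overlapped, and R6/2 library 3, the highest, was also the highest in Prdm8. Within the groups, the cortical mean ran with Prdm8 (Pearson r = 0.75 over 10 libraries after subtracting group means) and Sidt1 (0.70), against Smim24 (-0.70), and less clearly with Gm25177 (0.41), Myl6b (0.39) and Gm12695 (0.23). These are descriptions of 10 libraries that share their normalisation. With the cortical level as a covariate the log2 change of Sidt1 was 1.14, that of Prdm8 1.08, that of Myl6b 1.88, that of Smim24 2.15 and that of Gm25177 5.74. The part of the other marker lists in these rises was not tested.

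**Figure D4:**
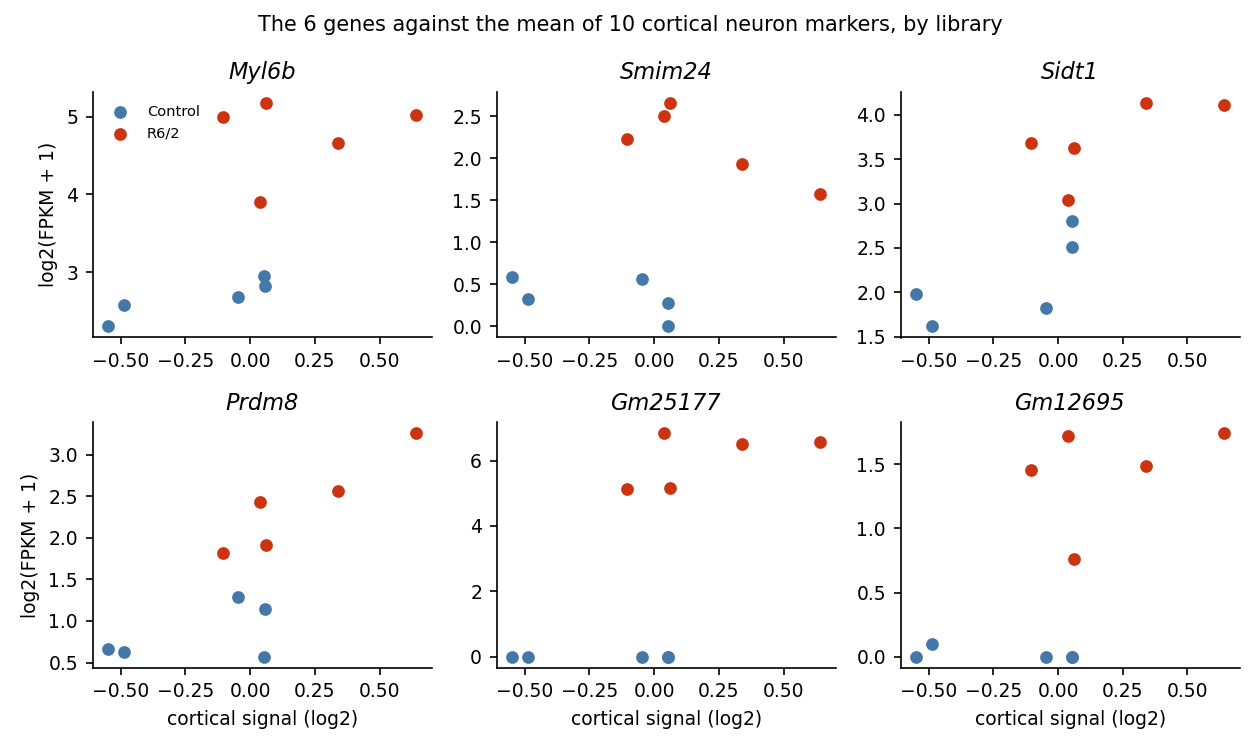
Log2(FPKM + 1) of each of the 6 genes (vertical axis, separate scales) against the mean of 10 cortical neuron markers in each library, centred on all libraries (horizontal axis, log2). Blue points are Control and red points are R6/2. The R6/2 points of each gene lie above the Control points, which follows from how the genes were picked. In R6/2 Prdm8 is highest where the cortical level is highest, at 0.642 in library 3.

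The 6 genes differed in how they varied from library to library. After subtracting group means, Gm25177 and Gm12695 had r = 0.74 over the 10 libraries, Prdm8 and Gm25177 0.68, Prdm8 and Gm12695 0.54, and Myl6b and Sidt1 0.62. Smim24 ran against Sidt1 (-0.72), and Myl6b against Gm25177 (-0.62). For Gm25177 and Gm12695 the values rest mainly on R6/2, since Control was at or near 0.

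For each tested gene the 5 protein-coding genes most like it across libraries were listed, by the same within-group correlation over 10 libraries, as a description. For Myl6b they were Nmd3 (r = 0.93), Slc35f5 (0.92), Ccdc22 (0.90), Pmp22 (0.89) and Thrap3 (0.89). Of these Slc35f5 was higher in R6/2 (log2 change 0.69, limma adjusted p = 0.0182) and Pmp22 lower (-0.65, limma adjusted p = 0.0102). For Smim24 they were 1600002K03Rik (0.97), Begain (0.95), Zscan22 (0.94), Ptprt (0.94) and Bmyc (0.93), where the smallest limma adjusted p was that of Ptprt (0.0722). For Sidt1 they were Nptxr (0.91), Golga5 (0.91), Saraf (0.91), Fez2 (0.90) and Etnppl (0.90), with Fez2 higher (0.50, limma adjusted p = 0.00693). For Prdm8 they were Raph1 (0.93), Mydgf (0.92), Tro (0.92), Pdzrn3 (0.91) and Zfp706 (0.91), with Raph1 higher (0.62, limma adjusted p = 0.00777). For Gm25177 they were Nsmce3 (0.92), Caprin1 (0.91), Wdr25 (0.91), Sar1b (0.90) and Serf2 (0.90), where the smallest limma adjusted p was that of Serf2 (0.0672). The 5 lists share no gene. The r values of Gm25177 rest on its variation in R6/2 alone, since it was listed at 0 in every Control library. For all 5 lists, these are the highest of a great many correlations over 10 libraries, so values of this size can arise by chance.

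The direction of the 4 larger protein-coding rises was the same in every setting tried. For other constants and left-out libraries this was fixed in advance, because every R6/2 value of these genes lay above every Control value. Leaving out 1 library at a time, the log2 change ran from 1.98 to 2.30 for Myl6b, from 1.71 to 1.98 for Smim24, from 1.44 to 1.74 for Sidt1, from 1.33 to 1.69 for Prdm8 and from 5.85 to 6.27 for Gm25177. Prdm8 was lowest without R6/2 replicate 3 and highest without R6/2 replicate 4. For Myl6b, Smim24, Sidt1, Prdm8 and Gm25177 the constant added before the logarithm moved the change more than any omission. With 0.1 and 5 FPKM added the change was 2.26 and 1.59 for Myl6b and 1.81 and 1.02 for Sidt1. For Prdm8 it was 2.30 and 0.69, and for Gm25177 9.34 and 3.82.

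**Figure D5:**
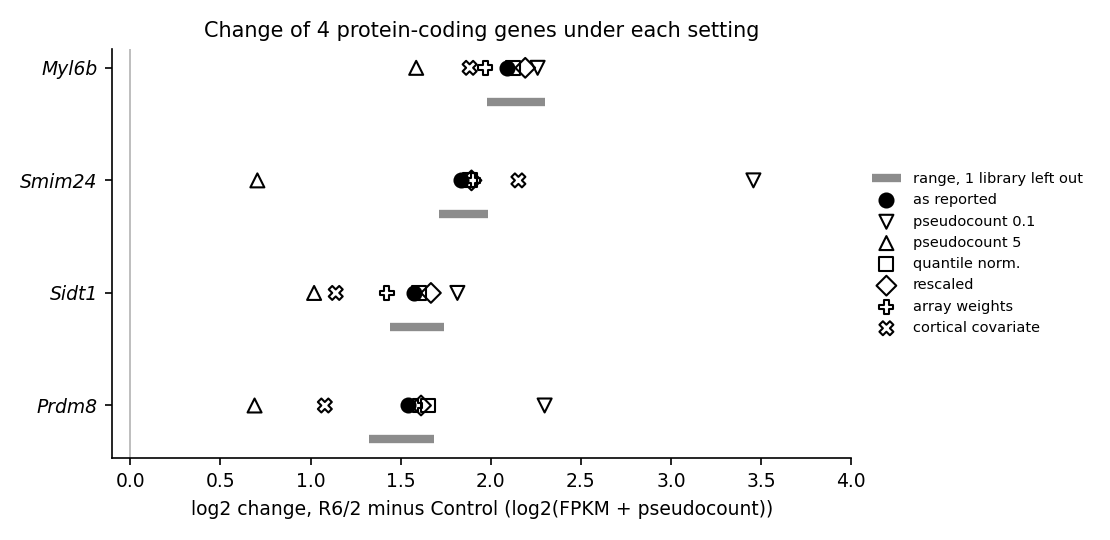
Log2 change of Myl6b, Smim24, Sidt1 and Prdm8 (vertical axis) under each way of computing it (horizontal axis, R6/2 minus Control). Filled circles are the values as reported, open symbols are single alternatives, and grey bars are the range when 1 library is left out. All values lie above 0, from 0.69 for Prdm8 with 5 FPKM added to 3.46 for Smim24 with 0.1 added. For the constants and the left-out libraries this follows from how the genes were picked.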

How the data were processed

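Striatal RNA of 5 Control and 5 R6/2 samples was purified with a lipid tissue kit, amplified with NuGEN Ovation and made into Nextera libraries, per the labels' protocols. The authors deposited 1 table of FPKM values. The tools named for GRCm38 are STAR 2.4.0 with Cufflinks and Cuffdiff, per the submitters' processing notes. The sources used here do not give the annotation release, the strand setting or any scaling. FPKM totals were 1545169 to 2309123 per library, and 0 columns lacked a sample. The totals over protein-coding genes outside the mitochondrial genome were 211209 to 219426 in Control and 193203 to 202906 in R6/2, without overlap. The shares of genes higher and lower shift when libraries are rescaled to 1 such total, as given below. The depth of the libraries is not given, and fragment numbers were not worked out from the FPKM values, so no counting intervals are shown.

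Symbols and positions came from the GENCODE annotation of GRCm38 (47220 of 47632 IDs). The 15905 genes whose mean reached 1 FPKM were fitted on log2(FPKM + 1) with limma 3.58.1 in R 4.3.3, R6/2 minus Control, two-sided, moderated by empirical Bayes with a trend of variance on mean. Genes passed at 0.05 after Benjamini-Hochberg adjustment. The fit was tested on simulated data. Fold changes on this scale understate the change of low genes. Values below 1e-06 FPKM were taken as 0. Marker lists were compared by exact permutation over the 10 libraries. The members and the gene lists were chosen with earlier results of these data known. Genes named are the 6 members, the 3 tested genes of each family list with the smallest p (and all that passed in lists of up to 8 tested), the nearest tested neighbour on each side and every neighbour that passed, the 5 most correlated genes, and the 3 snRNA genes with the largest change. Alternatives were other constants, limits, scalings, weights, covariates and left-out libraries. A few genes named by this rule are not reported here.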

Additional observations from a re-analysis of the deposited data

Results flagged for a closer look

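In groups of 5 libraries, a library was singled out where its gap to the nearest of the others was over 0.71 of the group's range (Dixon's test). Of 59 groups checked 4 were singled out, and for normally distributed values chance alone gives about 1 in 20. That rate does not hold for groups where every library but 1 is at 0, as in those of Gm12695, Gm24409 and Gm27579 below. Gm12695 was at 0.0688 FPKM in Control 1, and Controls 2 to 5 listed it at 0. The snRNA gene Gm24409 was at 33.6 FPKM in Control 1, with Controls 2 to 5 at 0. Gm27579, beside Gm12695, was at 491.0 FPKM in R6/2 1 and listed at 0 in the other R6/2 libraries. The mean of the oligodendrocyte markers was 5.61 on the log2 scale in R6/2 5, against 5.01 to 5.16 in the other R6/2 libraries. R6/2 5 was also the library with the highest Myl6b and Smim24 and the lowest Gm12695. The part of its oligodendrocyte marker level in these values was not tested.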

How the results depend on the processing

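The 5 tested genes of the 6 kept the sign of their change in every setting. For constants and left-out libraries this was fixed by how they were picked. Of the results computed 0 reversed, and 20 of the 38 other genes named kept their side of the threshold in all settings. With libraries rescaled to 1 protein-coding total, by which the median over all genes moved up 0.093 (log2), the genes higher in R6/2 numbered 1522 and the neighbours called 7, and 1 small integral membrane protein gene and 1 PR domain gene passed. Calls that were lower made up 64.6% as reported, 42.7% after that rescaling and 53.4% after quantile normalization. With the cortical level as a covariate, 272 genes were higher and 802 lower, and 2 myosin heavy chain genes, 0 PRDM8 partners and 0 neighbours passed. With a minimum mean of 5 FPKM 0 PRDM8 partners passed, since Epm2a was left out. Leaving out 1 library gave 0 to 2 PRDM8 partners, 576 (without Control 3) to 890 (without Control 5) higher genes and 1193 to 1518 lower genes. By the exact permutation test the marker means passed differently for cortical neurons (0.490) and microglia (-0.131) after rescaling. The blood list missed the threshold with 0.1 FPKM added (-0.871, exact test adjusted p = 0.111) and in 8 of the 10 omissions (exact test adjusted p = 0.0635). Over all 10 omissions its difference was -0.793 to -0.587. The replicate numbers do not pair the samples: deviations of same-numbered libraries had correlations of -0.053 to 0.049, and only number 5 correlated best with its own. With the replicate number as a block, 370 genes were higher and 975 lower, 1 neighbour and 0 PRDM8 partners passed, and among named genes the calls of Ppp1cb, Erbb3, Atp6v1a, Nfic, Epm2a, Myo9b, Gm23540 and Gm24409 were lost. The causes were not tested. Unknown depth limits all low values.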
